A study of Mus musculus with 12 samples.

Results

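The alpha-arrestins are adaptor proteins with arrestin folds, and 5 of their genes were followed across the muscle of wild-type and Gmppb mutant mice: Arrdc1, Arrdc2, Arrdc3, Arrdc4 and Txnip. The genes were chosen by symbol as members of this family, and all 5 were found among the 30488 symbols of the table. The family drew attention because Arrdc2 stood higher in R287Q than in wild-type muscle in an earlier look at these values. The levels of the members in wild-type mice and in the 3 lines are therefore given as a description, without a test. The fit over all genes also gives calls for these comparisons, which are no test of the members. A test is given for P32L with KO, which shares no mouse with that comparison, and for the spread within groups.

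RNA sequencing was done on gastrocnemius, the large calf muscle, of 12 mice aged 32 weeks, 3 per group, all on a standard diet. WT mice are wild type for Gmppb, which encodes an enzyme that makes GDP-mannose, a sugar donor for the glycans of dystroglycan and of many other proteins. In the KO line, exons 2 and 3 were removed with Cas9, a loss of 303 bp, and the mice were heterozygous. P32L mice are heterozygous for a change at base 95 that replaces proline 32 with leucine, and R287Q mice are homozygous for a change at base 860 that replaces arginine 287 with glutamine. The labels give no strain, sex, litter, feeding state or hour of collection. Nothing in them says whether the mice of a line came from separate litters, so p-values measure the spread between these 12 mice. The stated purpose was to learn how GMPPB bears on the development of muscle.

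As background, alpha-arrestins carry short proline-rich motifs by which they recruit ubiquitin ligases of the NEDD4 family to membrane proteins, which are then taken into the cell and degraded or sorted. Txnip also binds thioredoxin, and it lowers glucose entry by promoting uptake of glucose transporters from the cell surface. Transcription of Txnip and Arrdc4 is raised by glucose through the paired factors MondoA or ChREBP and Mlx, which bind carbohydrate response elements. Arrdc3 has been tied to the trafficking of cell surface receptors, and Arrdc1 drives the budding of small vesicles from the plasma membrane. Arrdc2 is less well described; its transcript in muscle is known to respond to glucocorticoids and to mechanical load.

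The promoters of Txnip and Arrdc4 are shown because glucose is known to act on them, and that of Arrdc2 because its level differed most between the groups. Each window runs from 250 bases before to 50 bases after the transcript start in RefSeq on GRCm38.p6, and all 5 members had a window. Capitals mark matches to any of 7 motifs, searched on both strands. The motifs were a form of the carbohydrate response element (CACGNG, then 5 bases of any kind, then CACGNG), the E-box (CACGTG), a forkhead site (GTAAACA), the cyclic AMP response element (TGACGTCA), a glucocorticoid receptor half-site (AGAACA), the CCAAT box (CCAAT, or ATTGG on the other strand) and the TATA box (TATAAA). The E-box and the carbohydrate response element can overlap. Positions count from 0 at the transcript start, so that bases before it are negative.
Txnip, chr3:96557707-96558006, plus strand: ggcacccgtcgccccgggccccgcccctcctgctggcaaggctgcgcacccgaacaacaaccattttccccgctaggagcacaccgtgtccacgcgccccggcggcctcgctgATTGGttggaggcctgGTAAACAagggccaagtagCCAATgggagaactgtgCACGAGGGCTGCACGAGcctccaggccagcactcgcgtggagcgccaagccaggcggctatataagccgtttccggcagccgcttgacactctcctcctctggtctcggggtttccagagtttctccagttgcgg
Arrdc4, chr7:68749189-68749488, minus strand: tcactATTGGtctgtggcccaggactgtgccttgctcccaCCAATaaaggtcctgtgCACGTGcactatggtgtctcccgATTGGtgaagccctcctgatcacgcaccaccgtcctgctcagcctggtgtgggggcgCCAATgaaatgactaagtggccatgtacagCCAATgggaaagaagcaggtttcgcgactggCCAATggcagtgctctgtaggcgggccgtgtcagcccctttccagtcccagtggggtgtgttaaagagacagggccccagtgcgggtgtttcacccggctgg
Arrdc2, chr8:70839671-70839970, minus strand: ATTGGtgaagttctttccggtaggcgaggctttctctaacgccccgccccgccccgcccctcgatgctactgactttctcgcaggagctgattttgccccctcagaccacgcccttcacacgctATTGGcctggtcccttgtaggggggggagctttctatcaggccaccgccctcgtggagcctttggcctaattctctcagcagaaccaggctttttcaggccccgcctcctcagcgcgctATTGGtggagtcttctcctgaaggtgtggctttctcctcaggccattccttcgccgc

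The Txnip window held the match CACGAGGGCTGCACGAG to the carbohydrate response element, at -85 to -69. This form was present in 16 of the 32851 windows of the table, or 0.0487%. The same window held a forkhead match at -121 to -115, a motif found in 3.65% of windows, and 2 CCAAT boxes. The Arrdc4 window held an E-box at -193 to -188, a motif present in 7.15% of windows, and 6 CCAAT boxes. The Arrdc2 window held 3 CCAAT boxes, which 37.4% of windows contain at least once. The cyclic AMP response element (1.79% of windows), the glucocorticoid half-site (19.0%) and the exact letters TATAAA (13.6%) were not in any window of the 5 members. The Txnip window does hold tatataag shortly before the start, which misses TATAAA only in the last base. The absence of a match thus does not show that Txnip lacks a TATA box. These are matches of letters in short windows, and no binding was measured.

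Levels are given in TPM, in which reads are divided by transcript length and by the library's total, so that genes of 1 library can be compared with each other. Each library totals about the same sum (997591 to 998739 TPM), and depth is unknown. Mitochondrially encoded transcripts took 53.0% to 58.4% of each library. The labelled tissue was borne out by 8 of 8 markers of skeletal muscle fibres, whose summed level was 23290 to 35500 TPM in the 12 mice. Markers were also summed for slow fibres and 8 other cell types, namely macrophages, endothelium, adipocytes, fibro-adipogenic progenitors, smooth muscle and pericytes, Schwann cells, erythroid cells and tenocytes. In 0 of 30 combinations of 10 lists with 3 lines did the summed level of a line lie wholly above or below that of WT. Every marker was detected in every group. Single mice still differed widely, from 11.1 to 385 TPM for slow fibres and from 66.5 to 828 TPM for adipocytes. For slow fibres P32L only just met WT, at 128.8 TPM at most against 128.7 TPM at least. The overlap therefore does not show that the muscles were alike in make-up. Gmppb itself stood at 3.02 to 4.42 TPM in WT and at 3.03 to 4.16 TPM over the 3 lines.

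Arrdc2 (chromosome 8, 70835129 to 70839720, minus strand) was the member that differed most between the groups. Its 3 WT values were 7.80, 7.79 and 4.24 TPM, and the KO mice had 5.85, 5.79 and 13.6 TPM. The P32L mice had 13.5, 19.5 and 10.1 TPM, and the R287Q mice 27.6, 16.9 and 23.0 TPM. All 3 P32L mice and all 3 R287Q mice lay above every WT mouse, while KO overlapped WT. Within KO, replicate 3 stood above its group mates, which lay inside the WT range. In whole muscle, more RNA per cell and more cells that hold the transcript cannot be told apart.

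The group means of Arrdc2 were 6.61 ± 2.05 TPM in WT, 8.41 ± 4.49 TPM in KO, 14.4 ± 4.79 TPM in P32L and 22.5 ± 5.39 TPM in R287Q (SD, n = 3). Relative to WT the mean was 3.41-fold in R287Q, 2.17-fold in P32L and 1.27-fold in KO. On the scale of log2(TPM + 1), which understates changes of low genes, the difference from WT was 1.64 (SE 0.34) in R287Q, 1.01 (SE 0.34) in P32L and 0.25 (SE 0.34) in KO. Ordered by size among the 9152 genes that averaged 1 TPM or more, Arrdc2 ranked 7 from the top in R287Q, 33 in P32L and 753 in KO. The KO difference turned to -0.12 without KO replicate 3 and to -0.00189 without WT replicate 3, so its direction rested on these mice. Without any 1 mouse, the R287Q difference stayed between 1.39 and 1.82 and the P32L difference between 0.76 and 1.22, both lowest without WT replicate 3.

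**Figure D1:**
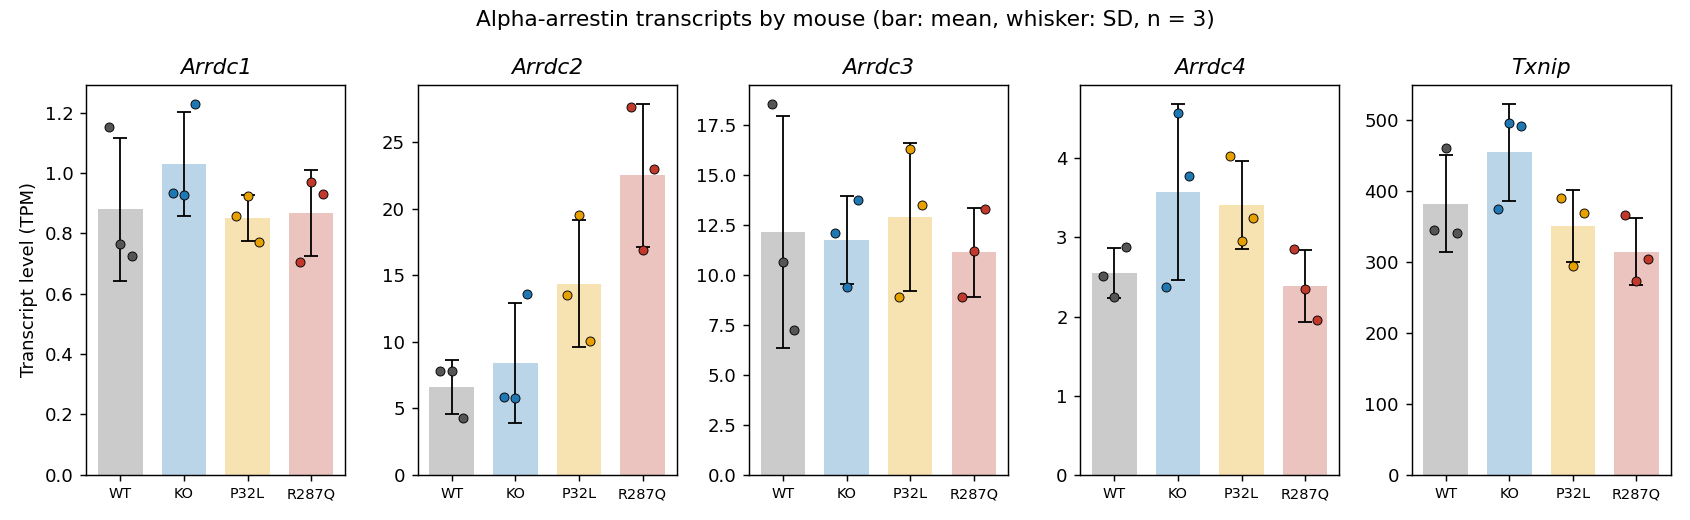
Transcript level in TPM of the 5 alpha-arrestin genes in each of 12 mice, by group. Points are mice, bars are means and whiskers are SD (n = 3); Arrdc2 lies above every WT mouse in P32L and R287Q, while the groups of Arrdc3 overlap.

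Arrdc3 (chromosome 13, 80883384 to 80896042, plus strand), the member most like Arrdc2 in level, did not separate the groups. Its values were 18.6, 10.6 and 7.23 TPM in WT, 12.1, 9.43 and 13.8 TPM in KO, then 8.93, 16.3 and 13.5 TPM for the P32L mice, and 8.89, 11.2 and 13.3 TPM for R287Q. The WT mice alone spanned a range that held the values of all 9 mutant mice. The log2 difference from WT was 0.03 in KO, 0.14 in P32L and -0.04 in R287Q, each with SE 0.30, and the sign of each turned on leaving out 1 mouse, to -0.26 in KO and -0.16 in P32L without WT replicate 3 and to 0.30 in R287Q without WT replicate 1. The noncoding 1700023H06Rik lies on the other strand of Arrdc3 and was listed at 0 in 10 of the 12 mice and at no more than 0.210 TPM in the others.

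The balance of Arrdc2 and Arrdc3 within a mouse does not change when a library is scaled by a common factor, though other normalizations can change it. It is built from the Arrdc2 values that drew attention to the family. The ratios and shares therefore restate those values and are no separate result. In WT the ratio of Arrdc2 to Arrdc3 was 0.420, 0.731 and 0.586, and in KO it was 0.483, 0.614 and 0.986. In P32L it was 1.51, 1.2 and 0.744, and in R287Q 3.11, 1.5 and 1.73. Arrdc3 was the more abundant transcript in 6 of 6 WT and KO mice, and Arrdc2 in 2 of 3 P32L and 3 of 3 R287Q mice. Of the TPM summed over Arrdc1 to Arrdc4, Arrdc2 made up 25.96% to 36.3% in WT, 27.5% to 42.0% in KO, 36.5% to 49.4% in P32L and 53.7% to 68.9% in R287Q. The R287Q share lay above that of the other 9 mice.

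**Figure D2:**
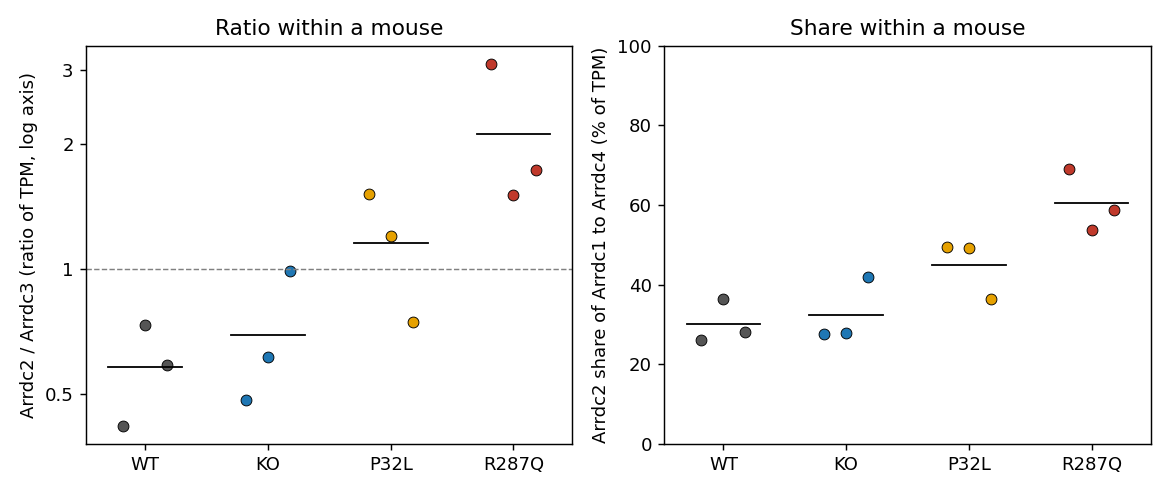
Ratio of Arrdc2 to Arrdc3 TPM (left, log axis, dashed line at 1) and Arrdc2 as a percent of the TPM summed over Arrdc1 to Arrdc4 (right) in each mouse; horizontal bars are group means. The ratio is under 1 in all WT and KO mice and above 1 in all R287Q mice.

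Txnip (chromosome 3, 96557957 to 96561883, plus strand) was by far the most abundant member. It stood at 344, 460 and 341 TPM in WT and at 374, 495 and 492 TPM in KO. The P32L mice had 390, 294 and 368 TPM, and the R287Q mice 366, 273 and 303 TPM. Every line overlapped WT, whereas all 3 R287Q mice lay below all 3 KO mice. The means were 382 ± 67.9 TPM in WT, 454 ± 68.9 TPM in KO, 351 ± 50.3 TPM in P32L and 314 ± 47.6 TPM in R287Q (SD, n = 3). The log2 difference from WT was 0.25 in KO, -0.12 in P32L and -0.28 in R287Q, each with SE 0.17. The P32L value turned to 0.02 without WT replicate 2 and to 0.00327 without P32L replicate 2. For R287Q with KO the difference was -0.53 (SE 0.17), a comparison that shares the R287Q mice with the one that drew attention to the family.

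Txnip made up 88.1% to 96.0% of the TPM of the 5 members in every mouse, so a sum over the family describes Txnip. The antisense transcript Gm15441 overlaps Txnip on the other strand, and a library without strand cannot assign shared reads. Gm15441 was listed at 0.0257 to 0.112 TPM, far under Txnip.

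Arrdc4 (chromosome 7, 68736995 to 68749241, minus strand), like Txnip a glucose-induced gene, stood at 2.52, 2.25 and 2.87 TPM in WT. It stood at 2.38, 4.58 and 3.78 TPM in KO, then 4.03, 2.95 and 3.24 TPM for P32L, and 2.86, 2.35 and 1.95 TPM for R287Q. The P32L mice lay above all WT mice, with P32L replicate 2 only just above WT replicate 3, and above all R287Q mice. KO held the highest value of the 12 mice and also a value inside the WT range. The log2 difference from WT was 0.34 in KO, 0.31 in P32L and -0.07 in R287Q, each with SE 0.17, and the R287Q value turned to 0.02 without R287Q replicate 3.

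Arrdc1 (chromosome 2, 24925352 to 24935252, minus strand) was the least abundant of the 5. Its values were 1.15, 0.765 and 0.723 TPM in WT, 0.933, 0.928 and 1.23 TPM in KO, then 0.856, 0.925 and 0.772 TPM for P32L, and 0.704, 0.970 and 0.929 TPM for R287Q. Its mean over the 12 mice, 0.907 TPM, was under the minimum of 1 TPM for testing, so 4 of the 5 members were tested. Every line overlapped WT, and the log2 difference from WT was 0.11 in KO, -0.02 in P32L and -0.01 in R287Q. The last 2 turned sign on leaving out 1 mouse. With a pseudocount of 0.01 in place of 1, the KO difference was 0.24.

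Within each mouse the order of the extremes was the same: Txnip highest, then Arrdc2 and Arrdc3 in either order, then Arrdc4 and Arrdc1. Over the 12 mice Txnip (at least 273 TPM) did not meet Arrdc2 (at most 27.6 TPM), and Arrdc4 (at least 1.95 TPM) did not meet Arrdc1 (at most 1.23 TPM). Arrdc2 and Arrdc3 overlapped, as did Arrdc2 in its lowest mouse and Arrdc4 in its highest. The related Arrdc5 stood at no more than 0.0923 TPM.

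**Figure D3:**
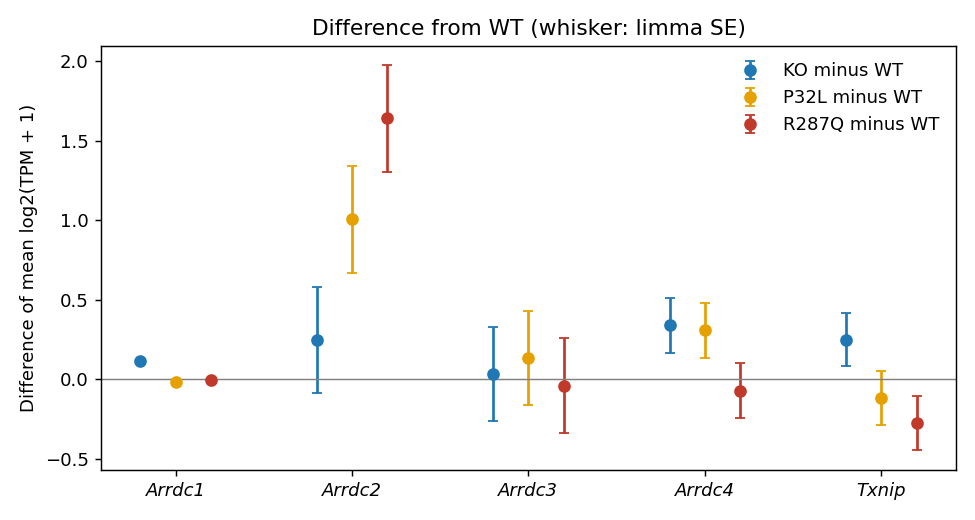
Difference from WT in mean log2(TPM + 1) for the 5 genes in KO, P32L and R287Q. Whiskers are the SE of the fit across all genes, absent for Arrdc1, which was below the minimum for that fit; Arrdc2 has the largest differences, 1.64 in R287Q and 1.01 in P32L.

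These values were set against all genes. In R287Q with WT, limma called 0 of the 4 tested members and 0 of 9152 genes (0%) at an adjusted p under 0.05, while 491 genes (5.36%) passed at an unadjusted p below 0.05. Without trend, or with robust variances, limma called 0 as well, and with no filter on low genes it called 34. Of the genes, 3.02% lay wholly above WT in R287Q, as did 1 of the 4 members, and 0.197% had a log2 difference of at least 1 upward, as did the same member, Arrdc2. In P32L with WT, limma called 0 of 4 members against 0.0437% of genes; 2 of the 4, Arrdc2 and Arrdc4, lay wholly above WT, against 5.56% of genes. In KO with WT, limma called 0 of 4 members against 0.0109% of genes, and 0 of 4 lay wholly above or below WT, against 7.87% of genes. In R287Q with KO, limma called 0 of 4 against 0.0437%; Arrdc2 lay wholly above, as did 2.68% of genes, and Txnip wholly below, as did 7.97%. In R287Q with P32L, limma called 0 of 4 members and 0 of 9152 genes (0%), 610 genes (6.67%) passed unadjusted, and 24 were called with no filter; Arrdc4 lay wholly below, as did 10.2%. Arrdc2 drew attention in R287Q with WT, and the other 4 of these comparisons share the WT or the R287Q mice with it, so nothing is read from the members' counts. None of the 4 tested members was called by limma in these comparisons in any of 23 other settings that fitted it. For the same reason this is no test of the members. Arrdc1 was left out of that count.

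The P32L and KO mice, both heterozygous, were compared with a test, in a fit that pools the spread of all 4 groups. Arrdc2 was higher in P32L by 0.76 on the log2 scale (95% interval 0.02 to 1.5), which did not pass (limma adjusted p = 0.603). Txnip was lower in P32L by a difference of -0.37 (-0.74 to 0.00298, limma adjusted p = 0.624). Arrdc3 differed by 0.10 (-0.55 to 0.75, limma adjusted p = 0.957) and Arrdc4 by -0.03 (-0.41 to 0.35, limma adjusted p = 0.980). With 0 of 4 members called, against 0.0219% of genes, the intervals for Arrdc3 and Arrdc4 hold differences in either direction. For Arrdc1, which was not tested, the P32L mice lay below the KO mice, 0.925 TPM at most against 0.928 TPM at least, as did 4.98% of the tested genes.

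The members were not picked for their spread between mice of 1 group. Choice by a large difference between small groups favours genes that vary widely, so the spread of Arrdc2 is not independent of the choice. The pooled SD within groups on the log2 scale was 0.48 for Arrdc2 and 0.42 for Arrdc3, against a median of 0.14 over the 9152 genes. It was larger than that of 97.1% and 95.8% of genes. Arrdc4 and Txnip, with 0.24 and 0.23, exceeded 84.0% and 82.4% of genes. Txnip has a mean TPM above 98.9% of genes.

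Deviations of each mouse from its group mean were correlated for the 6 pairs of tested members. An exact two-sided permutation test used the 1296 orders of mice within groups, whose smallest p is 0.000772, and p-values were adjusted over the 6 pairs. The test goes through every order but takes mice as interchangeable within each group. Over all tested genes, deviations of same-numbered mice of different groups correlated at a median of -0.34, so these p-values are approximate. Arrdc4 and Txnip, the glucose-induced members, had r = 0.54 (rho 0.52, exact permutation p = 0.130 and 0.155, adjusted p = 0.350 and 0.364), and r was 0.32 without the 2 mice with the most extreme Arrdc4. Arrdc3 and Arrdc4 had r = -0.52 (rho -0.64, exact permutation p = 0.0594 and 0.0332, adjusted p = 0.350 and 0.199), and r was -0.64 without the 2 mice most extreme in Arrdc3. Arrdc2 and Arrdc3 had r = 0.47 (rho 0.49, exact permutation p = 0.175 and 0.182, adjusted p = 0.350 and 0.364), and r was 0.29 without 2 mice. For Arrdc2 with Txnip r was 0.27 (rho 0.18, exact permutation p = 0.486 and 0.625, adjusted p = 0.583 and 0.670), and 0.11 without 2 mice. For Arrdc3 with Txnip r was -0.37 (rho -0.41, exact permutation p = 0.358 and 0.264, adjusted p = 0.537 and 0.396), and -0.58 without 2 mice. For Arrdc2 with Arrdc4 r was -0.00535 (rho -0.17, exact permutation p = 0.988 and 0.670, adjusted p = 0.988 and 0.670), and -0.02 without 2 mice. None of the 6 pairs passed, and 0 of 6 passed in each of 17 other settings.

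**Figure D4:**
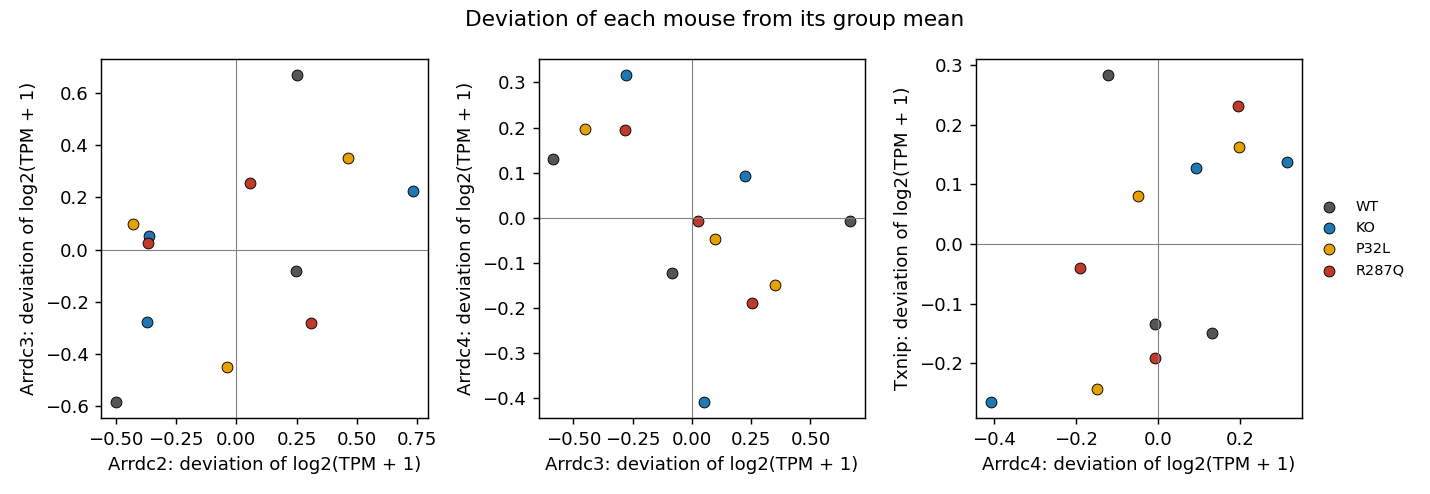
Deviation of each of 12 mice from its group mean in log2(TPM + 1) for 3 pairs of genes, colored by group. Arrdc2 and Arrdc3 (left, r = 0.47), Arrdc3 and Arrdc4 (middle, r = -0.52) and Arrdc4 and Txnip (right, r = 0.54) show loose relations that did not pass the permutation test.

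The genes most like each member over the 12 mice were found by Pearson's r of log2(TPM + 1), given as a description since these mice differ by group. For Arrdc2 they were Ccn2, a secreted matrix factor (0.90), Depp1, a target of FoxO factors (0.89), Slc25a33, a mitochondrial pyrimidine carrier (0.88), the integrin Itga6 (0.84) and the mitochondrial tRNA mt-Ti (0.83). Within groups these r were 0.83, 0.76, 0.92, 0.70 and 0.71. Depp1 stood at 6.47 to 8.14 TPM in WT, 4.94 to 10.8 TPM in KO, 9.80 to 18.8 TPM in P32L and 12.8 to 17.3 TPM in R287Q. Its P32L and R287Q mice lay above every WT mouse and KO overlapped WT, as for Arrdc2. A search by r over all 12 mice favours genes with the same group pattern, so this likeness follows from the search. Ccn2 averaged 22.1 ± 3.24 TPM in WT, 29.5 ± 14.2 TPM in KO, 39.8 ± 11.2 TPM in P32L and 45.4 ± 11.98 TPM in R287Q (SD, n = 3).

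The genes most like the other members were different ones. For Arrdc3 they included Zfp503 (0.90), Ccnh (0.84), the lipid droplet gene Hilpda (0.84) and Ddx28 (0.81). For Txnip they were Anapc13 (0.95), Zfp771 (0.94), the endothelial claudin Cldn5 (0.92) and the ribosomal protein genes Rps25 (0.91) and Rpl19 (0.90). For Arrdc4 they were Paip1 (0.93), Spcs1 (0.92), the ribosomal pseudogene Rps13-ps1 (0.92), Spty2d1 (0.92) and Cbr1 (0.91). Each is the top of 7986 genes compared, and some high r arise in any such search.

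The partners of the family were examined through 9 lists of 76 genes, 51 of which reached 1 TPM. Of the NEDD4-family ligases 3 of 9 were measured at that level and 0 passed in any line by limma. Nedd4 stood at 15.7 ± 1.05 TPM in WT and 14.0 ± 1.51 TPM in KO (log2 difference -0.15), and Wwp1 at 8.86 ± 0.943 TPM in WT and 9.21 ± 0.891 TPM in P32L (0.05). Smurf2 stood at 1.35 ± 0.0406 TPM in P32L and 1.13 ± 0.0652 TPM in WT (0.14, limma adjusted p = 0.733). Of the arrestins proper, Arrb1 and Arrb2 reached 1 TPM and 0 passed. Of 5 genes of the vesicle-budding machinery that Arrdc1 recruits, 0 passed; the ESCRT subunit Tsg101 stood at 3.68 ± 0.121 TPM in R287Q and 4.06 ± 0.0254 TPM in WT (-0.11, limma adjusted p = 0.980).

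Among 5 membrane proteins known as cargo of alpha-arrestins, 0 passed in any line. The insulin receptor Insr stood at 1.45 ± 0.0930 TPM in KO and 1.70 ± 0.163 TPM in WT, without overlap (-0.14, limma adjusted p = 0.852). Of all tested genes, 3.47% lay wholly below WT in KO. The muscle glucose transporter Slc2a4 stood at 198 ± 21.8 TPM in R287Q and 221 ± 45.4 TPM in WT (-0.15), and the basal transporter Slc2a1 at 0.955 ± 0.0785 TPM and 1.18 ± 0.181 TPM (-0.15). Of the glucose uptake list, 5 of 10 genes were tested and 0 passed; Pfkfb3, a regulator of glycolysis, averaged 12.4 ± 5.79 TPM in KO and 12.9 ± 5.39 TPM in P32L against 7.82 ± 1.63 TPM in WT.

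The transcription factors that act on Txnip and Arrdc4 did not pass either, 0 of 3 in each line. Mlxip, which encodes MondoA, stood at 3.99 ± 0.412 TPM in WT and 3.17 ± 0.498 TPM in R287Q, without overlap (-0.26, limma adjusted p = 0.980). Of all tested genes, 5.99% lay wholly below WT in R287Q and 3.47% in KO. Mlxipl, which encodes ChREBP, stood at 2.73 ± 0.356 TPM in WT and 2.24 ± 0.120 TPM in KO, without overlap (-0.20, limma adjusted p = 0.789), and their partner Mlx at 6.64 ± 0.693 TPM in WT and 5.82 ± 0.373 TPM in R287Q (-0.16). The list median was -0.17 in KO, -0.09 in P32L and -0.16 in R287Q, where the median of all tested genes was 0.01, 0.01 and -0.04. Of the thioredoxin system, whose reductant Txnip binds, 8 of 11 genes were tested and 0 passed. Txn1 stood at 7.79 ± 0.621 TPM in WT and 9.69 ± 1.56 TPM in KO (0.27, limma adjusted p = 0.777), and the list medians were 0.11, 0.02 and -0.000535 in KO, P32L and R287Q.

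Of 14 glucocorticoid-induced genes 11 were tested, and limma called 1 as higher in P32L and 0 in KO and R287Q. That gene was Per1, a repressor of the circadian clock, at 11.2 ± 0.846 TPM in P32L against 3.6 ± 0.528 TPM in WT (1.41, limma adjusted p = 0.0308). In R287Q it stood at 7.62 ± 1.16 TPM (0.90, limma adjusted p = 0.425). Klf15, a muscle transcription factor, stood at 7.75 ± 0.205 TPM in P32L and 5.34 ± 0.718 TPM in WT (0.47, limma adjusted p = 0.213). Cebpb stood at 8.05 ± 2.01 TPM in WT, 18.4 ± 5.43 TPM in KO (1.08, limma adjusted p = 0.366), 14.8 ± 2.45 TPM in P32L (0.81, limma adjusted p = 0.332) and 11.7 ± 1.13 TPM in R287Q (0.51, limma adjusted p = 0.898). The list median was 0.41 in KO, 0.63 in P32L and 0.19 in R287Q. The Per1 call was lost without any 1 of the WT or P32L mice, and also when the replicate number was added to the fit.

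Of 16 genes of fasting and FoxO signaling 11 were tested, and 0 passed in any line. Pdk4, which diverts muscle from glucose to fat, stood at 24.4 ± 7.48 TPM in WT, 77.7 ± 38.9 TPM in KO (1.54, limma adjusted p = 0.546), 64.5 ± 36.1 TPM in P32L (1.27, limma adjusted p = 0.533) and 80.2 ± 24.8 TPM in R287Q (1.67, limma adjusted p = 0.518). Ucp3, a mitochondrial carrier, stood at 10.1 ± 1.78 TPM in WT, 17.4 ± 5.68 TPM in KO (0.69, limma adjusted p = 0.583), 16.4 ± 2.74 TPM in P32L (0.65, limma adjusted p = 0.510) and 19.4 ± 1.22 TPM in R287Q (0.89, limma adjusted p = 0.447). Irs2, an insulin receptor substrate, stood at 8.89 ± 1.14 TPM in P32L and 3.83 ± 0.559 TPM in WT (1.03, limma adjusted p = 0.0505). Trim63, an atrophy ligase, stood at 35.9 ± 3.24 TPM in WT, 46.2 ± 2.26 TPM in KO (0.36, limma adjusted p = 0.445) and 52.0 ± 1.89 TPM in P32L (0.52, limma adjusted p = 0.0862). The list median was 0.31 in KO, 0.46 in P32L and 0.11 in R287Q.

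**Figure D5:**
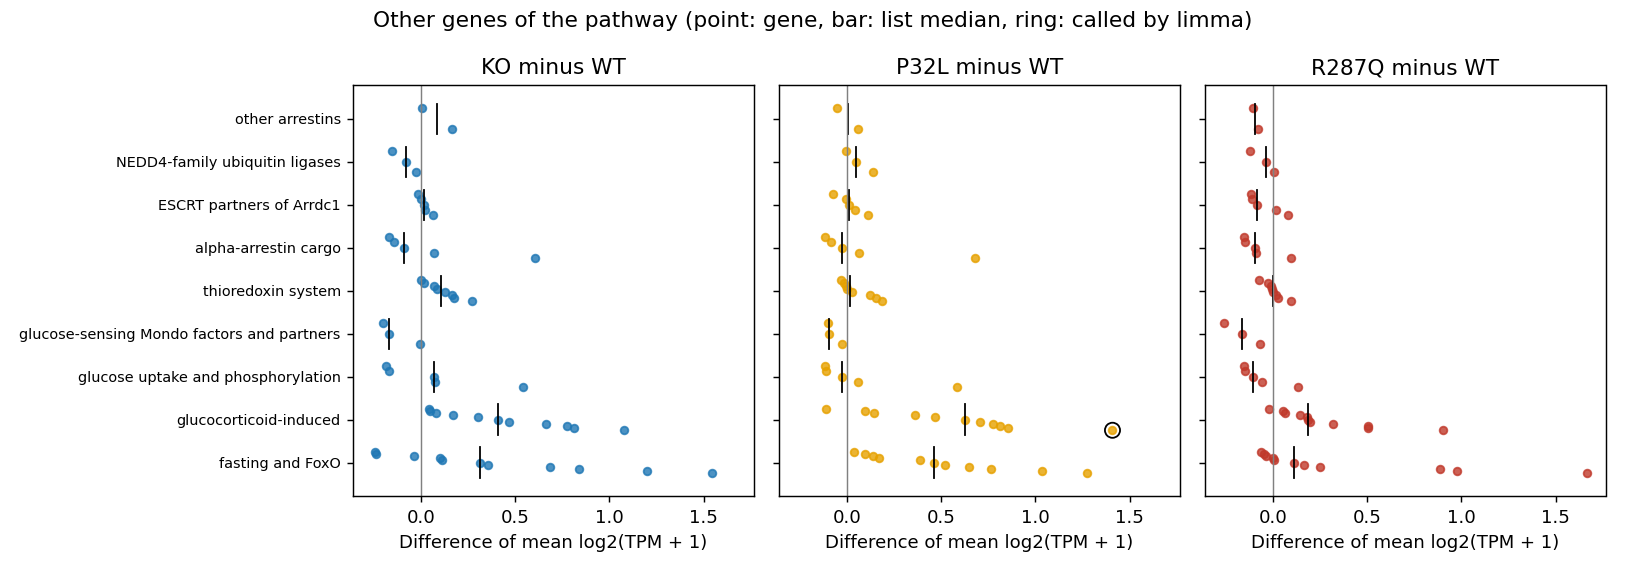
Difference from WT in mean log2(TPM + 1) of the tested genes of 9 lists in KO, P32L and R287Q. Points are genes, black bars are list medians and the ring marks Per1 in P32L, the 1 gene of these lists that limma called.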

How the data were processed

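The authors deposited 1 table of log2 values, 1 per gene symbol and mouse, read here as log2(TPM + 1) because 2 raised to each value, less 1, sums to 997591 to 998739 in each library. FastQC, HISAT2, StringTie and DESeq2 with build mm10 are named per the submitters' processing notes; the sources used here do not give versions, annotation or the meaning of adj in the table's name. Libraries were made with an NEBNext Ultra RNA kit from 2 µg of RNA, per the labels' protocols. TPM keeps no depth, so no counting interval is given.

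Genes averaging 1 TPM or more (9152 of 30488) were fitted with limma 3.58.1 (R 4.3.3) with trend on group means of all 12 libraries, with 8 residual degrees of freedom. Adjusted p is Benjamini-Hochberg over these genes from two-sided tests; calls are those below 0.05. The fit and the correlation test were tested on simulated data. Genes were placed with GENCODE M21 on mm10. The members, lists and tests were chosen with earlier results of these data known; the motifs were chosen after the values were seen. The named genes are the members; of each list the called genes and the 2 with the lowest p per line, of which part is printed; and the 5 genes most like each member, leaving out predicted models. Some of the genes that this rule names are not reported here.

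Same-numbered mice of different groups were checked for pairing: their deviations correlated at -0.53 to 0.24, with a median of -0.34 and 1 of 18 pairs above 0.1. Same-numbered mice thus tended to deviate in opposite directions, and the check cannot show that the numbers carry no structure. Whether the deposited values had been adjusted by replicate number was not tested. The main fit leaves the number out. Had the values been adjusted by it, the SE and p-values of that fit would be too small.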

Additional observations from a re-analysis of the deposited data

How the results depend on the processing

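Each result was recomputed in up to 23 other settings. Of 412 values of the members, 403 moved by less than the SD within groups or, where tested, kept their sign and call. This measure is lenient, since leaving out 1 of 3 mice seldom moves a mean by that SD. Where no test was made, a turn of sign also counted as unmoved. Arrdc2 in KO with WT, at 0.25, was counted so at -0.12 without KO replicate 3. The count therefore does not show that the signs were stable. With the pseudocount at 0.01, Arrdc1 moved to 0.24 in KO with WT and -0.26 in P32L with KO. In P32L with KO, leaving out 1 mouse gave -0.0735 to 0.33 for Arrdc3 (-0.0371 without KO replicate 2) and -0.24 to 0.13 for Arrdc4, so their sign turned, and Arrdc4 was at 0.00152 with mitochondrial genes left out. Genes called over the whole table, in the order KO, P32L and R287Q with WT, then P32L with KO, R287Q with KO and R287Q with P32L, were 1, 4, 0, 2, 4 and 0. With no filter they were 20, 13, 34, 21, 43 and 24, and with the minimum at 5 TPM 0 in KO with WT, 0 in P32L with KO and 2 in R287Q with KO. The pseudocount of 0.01 gave 0 in KO and 0 in P32L with WT and 1 in R287Q with P32L, where 0.1 also gave 1. Quantile normalization gave 3 in KO and 28 in P32L with WT and median-of-ratios scaling 23 in P32L; each gave 1 in R287Q with KO and 1 in R287Q with P32L. Fits of only the 2 groups gave 0 in KO and 1 in P32L with WT and 0 in P32L with KO. Leaving out 1 mouse gave 0 to 2, 0 to 7, 0 to 1, 2 to 2, 1 to 5 and 0 to 0.

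With the replicate number as a replicate block, 0 genes were called in KO and 0 in P32L with WT and 1 in R287Q with KO. Of the pathway genes, 0 were then called in P32L, so the Per1 call depended on leaving the number out of the fit. Of the pathway genes, 1 was called in P32L; the count was 0 with the pseudocount at 0.01 or no filter, 2 with the minimum at 5 TPM, with mitochondrial genes left out or with robust variance, 3 with median-of-ratios scaling or quantile normalization, where Irs2 and Trim63 joined Per1, and 0 to 2 without 1 mouse. The causes were not tested. Depth is unknown, which limits Arrdc1 most.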
